A study of Homo sapiens with 6 samples.

Results

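The regions described here are the RNA 3′ ends that mapped to the plus strand of the human mitochondrial chromosome (chrM) in 6 A-seq libraries from HEK293, an established cell line derived from human embryonic kidney. In A-seq, RNA with a poly(A) tail is selected and fragmented, and an anchored oligo(dT) primer copies it from where the tail begins, so that 1 read is taken to mark 1 end. The sequence around sites away from annotated ends was not analysed. Whether the reads there began at a tail was not tested. Every position on chrM with plus strand in the deposited files was taken: 3273 positions of 2438055 in the series, holding 363743 reads. Ends within 25 nt of a local highest position were joined into a site, and sites with a mean of at least 1 CPM (reads divided by the library total and scaled to 1e6) were kept, which left 108 of 319 sites on this strand and 49965 sites in the whole series.

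The study profiled 3′ ends after depletion of subunits of cleavage factor I (CF Im), a nuclear pre-mRNA 3′ end processing complex. Of the 6 libraries, 4 were made from RNA fragmented by alkaline hydrolysis: cells with no siRNA, cells with the scrambled-A control siRNA, cells with an Ambion siRNA to CF Im25 and cells with an Ambion siRNA to CF Im59. The other 2 were made with RNase I digestion: cells with scrambled-A and cells with a Dharmacon RNA duplex to CF Im68. The RNAi cells were harvested 3 days after transfection, and for CF Im25, CF Im59 and CF Im68 each depletion rests on 1 siRNA. Each group held 1 library, so no test between conditions was possible. Each ratio is given with an exact 95% interval that covers counting error only, since PCR copies are not independent molecules, and a site was called higher or lower when it differed by at least 2-fold, held at least 50 reads in 1 of the libraries compared and had an interval that excluded 1. A site low in 1 library could pass this minimum through the other library alone. Counts of calls and median ratios therefore depend in part on this filter. The depletion of the targeted genes and the HEK293 identity were not analysed here, since the files hold positions without gene names.

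As background, the heavy strand of human mitochondrial DNA is transcribed as long RNAs that carry both rRNAs, most tRNAs and nearly all mitochondrial mRNAs. The tRNAs lie between the coding genes and are cut out at both ends, which releases the rRNAs and mRNAs, and a mitochondrial poly(A) polymerase then adds tails to their 3′ ends. Several of these mRNAs are cut inside their stop codon, and the tail supplies the missing A bases. The proteins they encode belong to respiratory complex I (MT-ND1 to MT-ND5 and MT-ND4L), complex III (MT-CYB), complex IV (MT-CO1 to MT-CO3) and ATP synthase (MT-ATP6 and MT-ATP8). CF Im acts in the nucleus.

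Of 14 annotated rRNA and mRNA 3′ ends on this strand, 7 had a kept site. They were the large rRNA MT-RNR2 and the mRNAs MT-ND2, MT-ATP6, MT-CO3, MT-ND3, MT-ND4 and MT-CYB. The last 20 bases of these genes are shown because the measured ends lay close to them. They come from the GENCODE 29 transcripts (GRCh38, plus strand, coordinates of that build). Capitals mark the stop codon bases encoded in the gene, or for the rRNA the last bases.
MT-RNR2, chrM:3210-3229: cccacccaagaacagggTTT
MT-ND2, chrM:5492-5511: ttttatactaataatcttaT
MT-ATP6, chrM:9188-9207: acctgcacgacaacacaTAA
MT-CO3, chrM:9971-9990: catctattgatgagggtctT
MT-ND3, chrM:10385-10404: aggattagactgaaccgaaT
MT-ND4, chrM:12118-12137: cattaccgggttttcctctT
MT-CYB, chrM:15868-15887: caaaatactcaaatgggccT
Of these 6 mRNAs only MT-ATP6 has a full stop codon in its annotated sequence, and the other 5 end on 1 base past the last full codon, a T. The highest position of each site lay 2 to 5 nt past the annotated end: 2 nt for MT-ND2, MT-CO3, MT-ND3 and MT-ND4, 3 nt for MT-CYB, and 5 nt for MT-RNR2 and MT-ATP6. The submitters' processing notes name hg19, whose mitochondrial coordinates differ by a small offset from the annotated sequence, so these distances are between builds and are not distances in the RNA. The distances differed between genes, and coordinates were not converted. How much of each is offset and how much lies in the RNA was not determined. All site positions below are those of the files.

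The other 7 annotated ends had no kept site. MT-RNR1, the small rRNA, and MT-ND1, MT-CO1 and MT-CO2 had 0 reads within 25 nt of the end in all 6 libraries, MT-ATP8 had 2, MT-ND5 had 9 and MT-ND4L had 54. In the published mitochondrial map MT-ATP8 and MT-ND4L share an RNA with MT-ATP6 and MT-ND4, and MT-ND5 continues past its stop codon. Around the annotated ends the nearest reads on either strand left an empty stretch of 197 nt for MT-CO1, 178 nt for MT-RNR1, 149 nt for MT-CO2 and 124 nt for MT-ND1. The MT-CO1 RNA runs 69 nt past the stop codon to the end of the MT-TS1 region, and 39 reads lay within 25 nt of that point. MT-CO2 gave 0 reads 25 nt past its stop codon. The last bases of some of these genes have long exact copies in nuclear pseudogene transcripts of the same annotation: 158 nt for MT-ND1 in MTND1P23, 129 nt for MT-CO1 in MTCO1P12 and 66 nt for MT-CO2 in MTCO2P12. For the 6 mRNA ends with a kept site the longest copy was 39 nt, for MT-ATP6. MT-RNR1, at 0 reads, had a longest match of 11 nt, and MT-ND2, with 20969 reads, one of 15 nt. The search covered annotated transcripts alone and only exact matches that include the last base. Other nuclear copies, or copies with a mismatch near the end, would not be seen. How the authors treated reads with several matches is not given in the sources used here, and its part in these zeros was not tested.

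The depth was 18183644 reads in the no-siRNA library, 9690883 in the scrambled alkaline, 10659900 in CF Im25, 12642699 in CF Im59, 5351980 in the scrambled RNase I and 12997383 in CF Im68. The mitochondrial plus strand held 0.616%, 0.581%, 0.532%, 0.736%, 0.233% and 0.255% of these reads in the same order. Both RNase I libraries stood apart with the lowest shares. Their opposite strand did the reverse: the chrM minus strand held 0.542% to 1.33% of reads in the alkaline libraries and 3.93% and 8.12% in the RNase I libraries. The plus strand made up 30.5% to 49.5% of all chrM reads after alkaline hydrolysis and 5.59% and 3.05% after RNase I. Each depletion is therefore set against scrambled RNA fragmented in the same way, and the methods are compared separately. With 1 scrambled library for each method, fragmentation and any other difference in library preparation cannot be told apart.

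The end of MT-ND4, a core subunit of complex I, was the most abundant end in all 4 alkaline libraries. It had 3410.0 CPM with no siRNA, 2739 CPM in the scrambled alkaline library, 1777 CPM in CF Im25 and 2619 CPM in CF Im59, against 188 CPM in the scrambled RNase I library and 133 CPM in CF Im68. The groups by fragmentation did not overlap, and the lowest alkaline value was the CF Im25 library. The end of MT-RNR2, the 16S rRNA of the mitochondrial ribosome, had 668, 779, 1279.8, 1550.4, 1038 and 759 CPM in the same library order. It was the most abundant end in both RNase I libraries, and its highest values were in the CF Im25 and CF Im59 libraries. The ratio of MT-ND4 to MT-RNR2 end reads was 5.11 with no siRNA, 3.52 in the scrambled alkaline library, 1.39 in CF Im25, 1.69 in CF Im59, 0.181 in the scrambled RNase I library and 0.175 in CF Im68. Since each read is taken as 1 end, these levels are not divided by gene length.

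**Figure D1:**
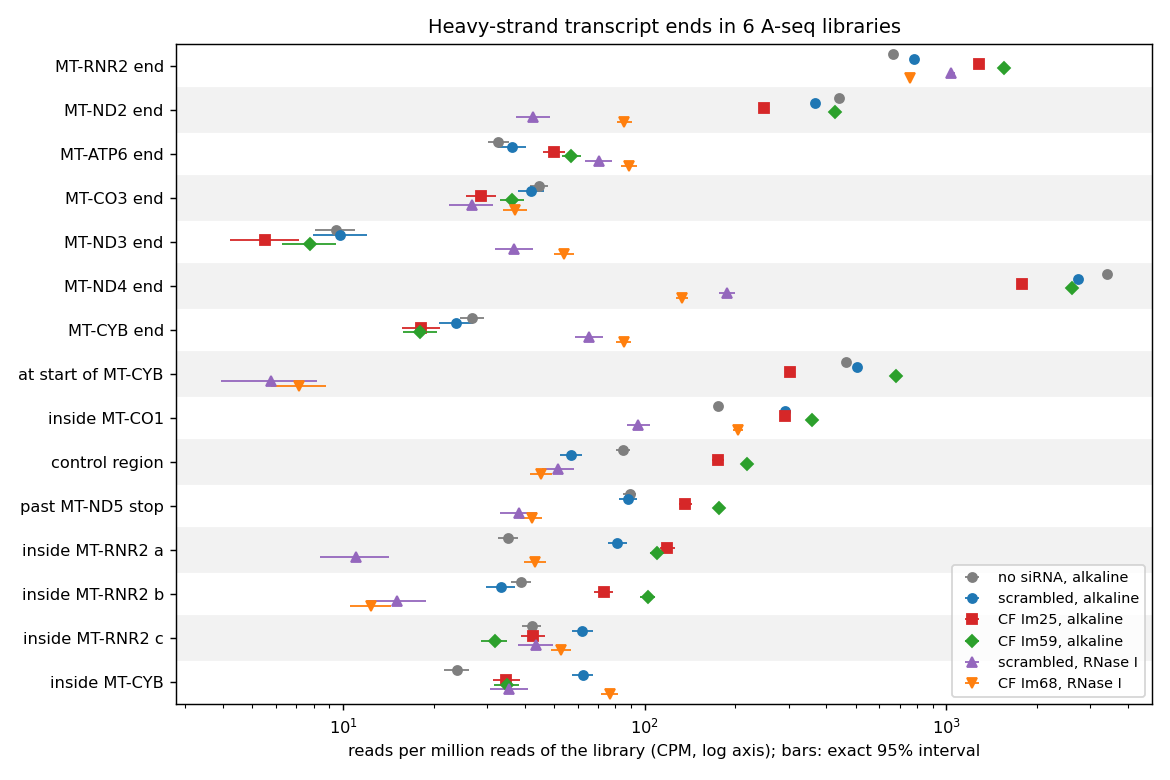
Level of 15 ends (CPM, log axis) in the 6 libraries, 1 point per library. The 4 alkaline libraries lie well above both RNase I libraries at the MT-ND4 end and at the start of MT-CYB, and below them at the MT-ND3 and MT-CYB ends.

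MT-ND2, another core subunit of complex I, ranked next among the mRNA ends of the alkaline libraries, with 440 CPM with no siRNA, 368 in the scrambled alkaline library, 249 in CF Im25, 428 in CF Im59, 42.8 in the scrambled RNase I library and 85.7 in CF Im68. Its alkaline values all lay above its RNase I values. MT-ND3, also a complex I subunit, had the opposite order, with 9.46, 9.80, 5.53 and 7.75 CPM in the alkaline libraries and 37.0 and 54.1 CPM with RNase I. Within complex I the abundances of the ends thus spanned from under 10 to over 1000 CPM in each alkaline library.

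MT-CYB, the only mitochondrially encoded subunit of complex III, had 26.8, 23.7, 18.2 and 18.0 CPM in the alkaline libraries in the same order and 65.4 and 85.1 CPM in the scrambled RNase I and CF Im68 libraries. MT-CO3, a core subunit of cytochrome c oxidase, had 44.7, 42.0, 28.7, 36.3, 26.7 and 37.2 CPM. MT-ATP6, a membrane subunit of ATP synthase, had 32.7, 36.4, 50.2, 57.1, 70.4 and 88.8 CPM. The fragmentation groups overlapped at the MT-CO3 end and did not overlap at the MT-CYB and MT-ATP6 ends, where RNase I gave the higher values. MT-CO3 and MT-ATP6 differed by less than 2-fold in each alkaline library.

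Between the 2 scrambled libraries, which share the siRNA and differ in fragmentation, the RNase I library had 0.400 times the plus-strand chrM share (95% interval 0.393 to 0.408). Of 49 sites with enough reads, 11 were called higher and 25 lower, against 27.3% called higher and 40.9% called lower among all sites tested in the series. The median log2 ratio was -1.08 over these 49 sites and -0.52 over all sites tested. The MT-ND4 end was lower, at 0.068 times the alkaline level (0.064 to 0.073), as was the MT-ND2 end at 0.116 (0.101 to 0.133). The MT-ND3 end was higher at 3.77 times (2.94 to 4.87) and the MT-CYB end at 2.76 times (2.33 to 3.27). MT-RNR2 with 1.33, MT-ATP6 with 1.93 and MT-CO3 with 0.636 were not called, and with TMM scaling MT-ATP6 was over the 2-fold limit at 2.21. Of the 18 sites inside mRNA genes with enough reads, 17 were lower and 0 higher, with a median ratio of 0.0888.

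The nucleotide at which ends fell also differed by fragmentation at some genes. At MT-ND4, 83.8%, 79.6%, 75.1% and 79.8% of the reads of the site lay at its highest position in the alkaline libraries, against 10.9% and 2.55% with RNase I. There the next nucleotide downstream held 57.8% and 63.6%, against 8.93% to 14.1% in the alkaline libraries. At MT-ND2 the highest position held 45.1% to 58.1% of alkaline reads and 3.93% and 1.80% of RNase I reads, and the position 3 nt downstream held 8.85% to 12.1% and 45.9% and 47.6%. MT-ND3 had 81.1% to 88.8% against 49.0% and 46.8% at its highest position. The site at the start of MT-CYB kept 99.6% to 99.9% and 87.1% and 88.2%.

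The ends of MT-ATP6, MT-CO3, MT-RNR2 and MT-ND3 had the same highest nucleotide with both methods, although its share differed at MT-ND3. MT-ATP6 held 66.7% to 78.8% of its reads at 1 position in all 6 libraries. MT-CO3 was spread over 3 positions in each of them, with 39.3% to 46.4% at the highest, and a second group 3 and 4 nt downstream. At MT-CYB the highest position and the next nucleotide downstream held 47.4% to 70.1% and 18.6% to 33.5% in the alkaline libraries, and 49.1% and 46.3% in the scrambled RNase I library, and in CF Im68 the downstream one was slightly the higher, at 48.1% against 46.7%. MT-RNR2 held 57.4% to 76.6% at its highest position and 14.4% to 28.8% at a second position 2 nt upstream. Within the alkaline libraries the share at the highest MT-RNR2 position was 19.3 percentage points lower in CF Im25 than in the scrambled library, with an interval of -20.5 to -18.0 points. It was 11.96 points lower in the no-siRNA library (-13.2 to -10.7), so the 2 control libraries also differed there. Across the 4 alkaline libraries the highest nucleotide was the same at 7 of 7 annotated ends, and across all 6 libraries at 4 of 7.

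**Figure D2:**
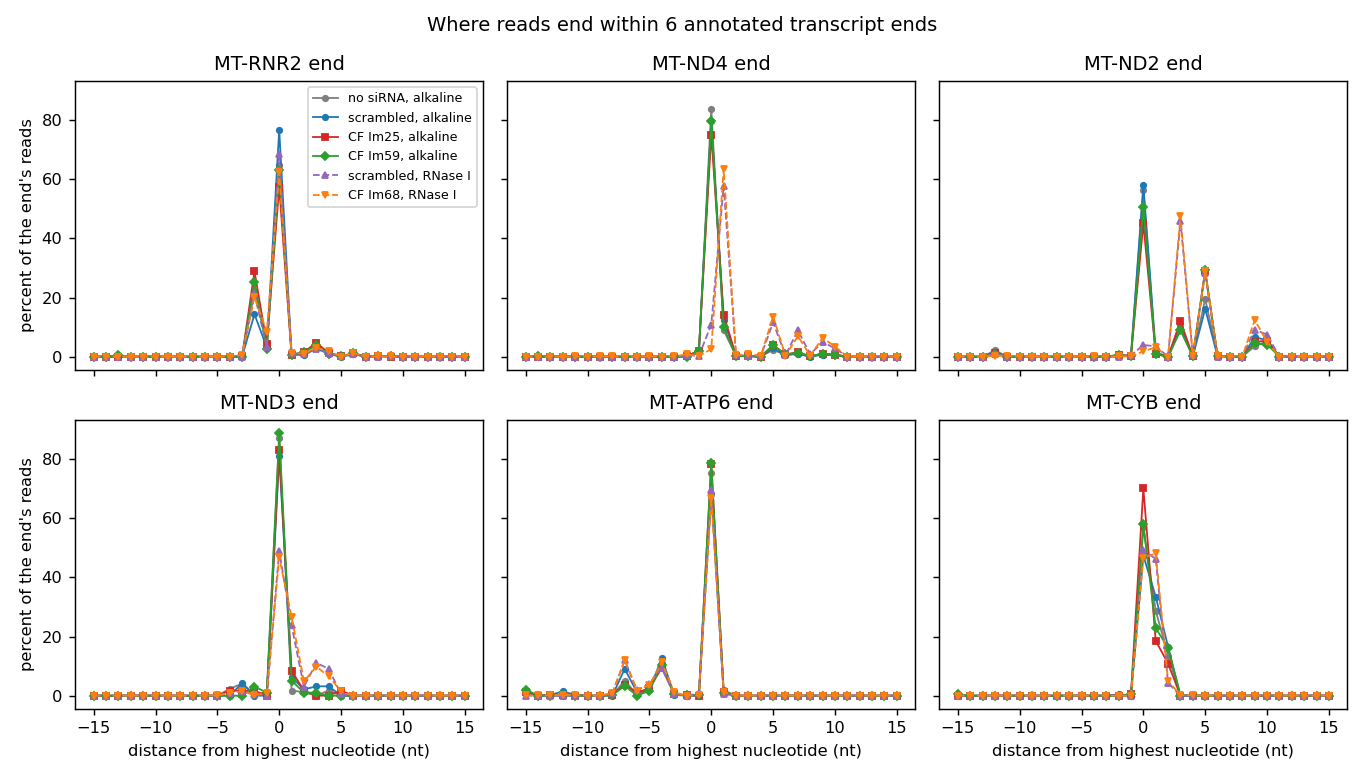
Percent of the reads of an end at each distance (nt) from its highest position, 1 line per library, for 6 ends. The RNase I libraries (dashed) have their highest share 1 nt downstream at MT-ND4 and 3 nt downstream at MT-ND2. At MT-RNR2 the 6 lines peak at the same position, with shares from 57.4% in CF Im25 to 76.6% in the scrambled alkaline library.

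The library with no siRNA and the scrambled alkaline library show how far 2 control libraries of the same method differ, although they also differ in transfection. Their plus-strand chrM share had a ratio of 1.06 (1.05 to 1.07). Of 62 sites with enough reads, 7 were called higher and 12 lower with no siRNA, against 5.87% higher and 4.96% lower among all sites tested in the series. None of the 7 annotated ends was called, and their ratios ran from 0.857 for MT-RNR2 to 1.24 for MT-ND4. All 12 lower calls were inside genes, at 8 of 23 sites in mRNA genes and 4 of 22 in MT-RNR2. Of the 7 higher calls 4 were in MT-RNR2, 2 in MT-RNR1 and 1 in the control region.

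In the CF Im25 library the plus-strand chrM share was 0.916 times that of the scrambled alkaline library (0.906 to 0.927). Of 55 sites with enough reads, 16 were called higher and 2 lower, against 19.5% higher and 16.9% lower among all sites tested, and the median log2 ratio was 0.28 beside 0.03 over all sites. None of the 7 annotated ends was called. MT-RNR2 had a ratio of 1.64 (1.60 to 1.69) and MT-ATP6 1.38 (1.20 to 1.58). The other 5 ends had ratios below 1: 0.767 for MT-CYB (0.630 to 0.932), 0.683 for MT-CO3 (0.587 to 0.795), 0.676 for MT-ND2 (0.642 to 0.711), 0.649 for MT-ND4 (0.637 to 0.661) and 0.565 for MT-ND3 (0.401 to 0.790). Against the no-siRNA library the ratio was 1.92 for MT-RNR2 (1.87 to 1.96) and 0.521 for MT-ND4 (0.513 to 0.530).

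In the CF Im59 library the share was 1.27 times that of the scrambled alkaline library (1.26 to 1.28). Of 66 sites, 21 were called higher and 1 lower, against 10.9% higher and 12.6% lower among all sites tested, with a median log2 ratio of 0.58 beside -0.01. No annotated end was called. MT-RNR2 was just under the 2-fold limit at 1.99 (1.94 to 2.04). It was over that limit with TMM scaling at 2.16 and median-of-ratios scaling at 2.14, and against the no-siRNA library at 2.32 (2.27 to 2.38). MT-ATP6 had 1.57 (1.38 to 1.79), MT-ND2 1.16 (1.12 to 1.21) and MT-ND4 0.956 (0.941 to 0.972). MT-CO3 with 0.864, MT-ND3 with 0.791 and MT-CYB with 0.760 were below 1, and the MT-ND3 interval of 0.590 to 1.06 included it. The CF Im25 and CF Im59 comparisons share the scrambled library, so their values are not independent.

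In the CF Im68 library the share was 1.10 times that of the scrambled RNase I library (1.08 to 1.12). Of 48 sites, 21 were called higher and 2 lower, against 22.8% higher and 12.1% lower among all sites tested, with a median log2 ratio of 0.86 beside 0.12. Some of the higher calls passed the read minimum only through the CF Im68 library, which was the deeper one. Position 2292 held 0 scrambled and 102 CF Im68 reads, and position 2228 held 10 and 149. The count and the median can be raised by this. The MT-ND2 end was called higher at 2.00 (1.74 to 2.32), from 229 reads against 1114, and sits at the limit of the rule. Counted at the highest nucleotide of the site alone, where few RNase I reads lay, its ratio was 0.915, and that of MT-ND4 was 0.166. The ends of MT-RNR2 at 0.731 (0.707 to 0.756) and MT-ND4 at 0.708 (0.655 to 0.766) had ratios below 1. MT-ND3 with 1.46, MT-CO3 with 1.39, MT-CYB with 1.30 and MT-ATP6 with 1.26 had ratios above 1 and were not called.

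**Figure D3:**
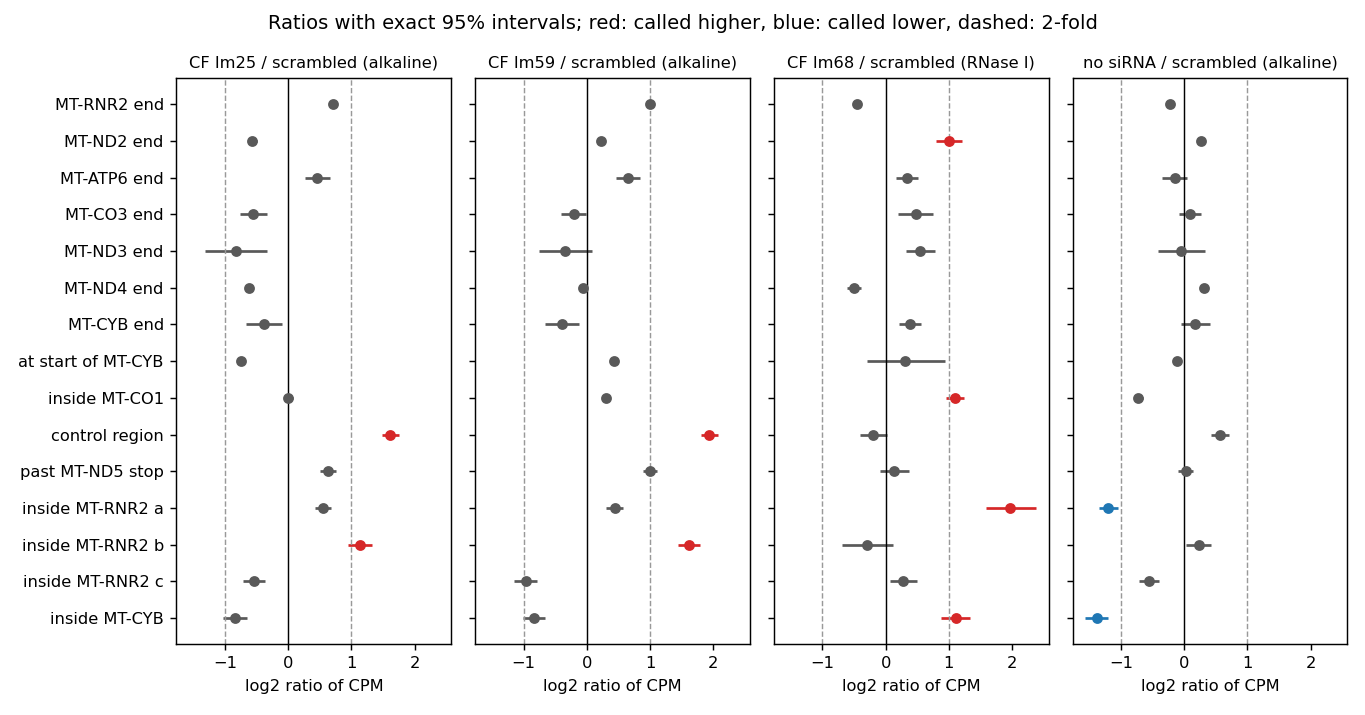
Log2 ratio of each end with its 95% counting interval in 4 comparisons (3 depletions and no siRNA, each over the scrambled library of the same method), red where called higher and blue where called lower, with dashed lines at 2-fold. The letters a, b and c mark the MT-RNR2 sites at positions 2266, 2436 and 1857. Among the 7 annotated ends, MT-ND2 in CF Im68 is the one call in these 4 panels.

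Among the sites that are not at an annotated end, the most abundant in the alkaline libraries lay 599 nt past the MT-ND5 stop codon, at position 14747. The annotated start of MT-CYB has the same number in the other build. Distances of sites from annotated genes, here and below, are between builds. In the published map the MT-ND5 RNA, which encodes a complex I subunit, is cut from the MT-CYB RNA near there. Whether this site is that cut was not tested. It had 466 CPM with no siRNA, 506 in the scrambled alkaline library, 303 in CF Im25, 679 in CF Im59, 5.79 in the scrambled RNase I library and 7.16 in CF Im68. The alkaline values lay far above the RNase I values with no overlap, and between the scrambled libraries RNase I was 87.3-fold lower. The ratios to the matched control were 0.599 in CF Im25 (0.573 to 0.626), 1.34 in CF Im59 (1.30 to 1.39) and 1.24 in CF Im68 (0.815 to 1.92, from 31 and 93 reads), and none was called.

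A site 44 nt past the MT-ND5 stop codon, antisense to the light-strand gene MT-ND6, had 89.3, 88.0, 136, 176, 38.3 and 42.2 CPM in the same library order. Its ratio in CF Im59 was just under 2-fold at 2.00 (1.84 to 2.16) and was not called, and with TMM scaling it was 2.16. RNase I was lower at 0.435, which median-of-ratios scaling took to 0.505. A site in the control region, the non-coding stretch that holds the promoters, at position 165, had 84.8, 57.2, 176, 219, 51.8 and 45.3 CPM. The 2 highest libraries were CF Im59 and CF Im25. It was higher in CF Im25 at 3.07 times (2.79 to 3.38) and in CF Im59 at 3.82 times (3.49 to 4.20), and against the no-siRNA library at 2.07 and 2.58 times. In CF Im68 its ratio was 0.876 (0.758 to 1.014).

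Inside MT-CO1, the catalytic subunit of cytochrome c oxidase, the most abundant site lay at position 7040 with 175, 291, 291, 359, 95.3 and 203 CPM. It was higher in CF Im68 at 2.13 times (1.94 to 2.35) and had ratios of 1.001 in CF Im25 and 1.24 in CF Im59. Against the no-siRNA library CF Im59 was called higher at 2.05 times (1.96 to 2.14), and CF Im25 had 1.66. At the highest nucleotide alone the CF Im68 ratio was 1.54. Inside MT-CYB a site at position 15117 had 23.8, 62.3, 34.8, 34.9, 35.5 and 76.6 CPM. It too was higher in CF Im68, at 2.16 times (1.84 to 2.53), but it was also lower in the no-siRNA library than in the scrambled one at 0.382 (0.337 to 0.433). Per kilobase of gene, MT-CO1 held 135 to 305 CPM of inside reads in the alkaline libraries, and MT-ND5 4.95 to 5.59. Most of these MT-CO1 reads lay at the 7040 site, with 2820 of 3588 in the scrambled alkaline library, so they were not spread evenly along the gene.

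MT-RNR2 held the largest number of sites inside a gene, 33 of 108, with 225, 233, 368, 428, 284 and 395 CPM per kilobase in the same library order. In CF Im25, 12 of 20 of these sites with enough reads were higher and 0 lower, with a median log2 ratio of 1.10, where all sites tested in the series gave 19.5% higher and 16.9% lower. In CF Im59, 13 of 22 were higher and 0 lower, with a median of 1.19, where all sites gave 10.9% and 12.6%. In CF Im68, 11 of 26 were higher and 2 lower, with a median of 0.77, where all sites gave 22.8% and 12.1%. Against the no-siRNA library the CF Im25 counts were 7 higher and 1 lower of 22, where all sites tested gave 14.5% and 16.8%, and the CF Im59 counts 12 higher and 1 lower of 24, where they gave 5.63% and 9.35%.

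Single sites inside MT-RNR2 varied among libraries of the same method. The site at position 2436 had 39.0, 33.3, 73.2, 102, 15.1 and 12.4 CPM and was higher in CF Im25 at 2.20 and in CF Im59 at 3.07 times. Against the no-siRNA library CF Im25 was not called, at 1.88 times, and CF Im59 was higher at 2.62 times. The site at 2266 had 35.3, 81.2, 119, 110, 11.02 and 43.2 CPM and was higher in CF Im68 at 3.92 times, and lower with no siRNA than with the scrambled siRNA at 0.435 times. CF Im25 and CF Im59 had ratios of 1.46 and 1.35 to the scrambled library, and both were called higher against the no-siRNA library, at 3.37 and 3.12 times. The site at 1857 had 42.2, 62.1, 42.7, 31.8, 43.5 and 52.9 CPM with no call against the scrambled libraries. These sites depend on the window: within 10 nt instead of 25, the CF Im68 ratio at 1857 was 12.8, the CF Im59 ratio at 2266 was 2.99 and the no-siRNA ratio at 2266 was 0.615. The CF Im25 ratio at 2436 was under the 2-fold limit in both other windows, at 1.995 within 10 nt and 1.81 within 50 nt. The highest nucleotide was the same in all 4 alkaline libraries at 1 of 13 sites inside MT-RNR2 with 50 reads in each, and at 8 of 15 inside mRNA genes, beside the 7 of 7 annotated ends.

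Grouped by place, annotated ends held 75.2%, 68.8%, 64.0%, 64.0%, 63.1% and 48.7% of the plus-strand chrM reads in the same library order. The mRNA ends alone held 64.3%, 55.4%, 39.99%, 43.0%, 18.5% and 18.9%. The site at the start of MT-CYB was not counted among the annotated ends or mRNA ends. It held 7.57%, 8.71%, 5.69%, 9.22%, 0.249% and 0.280%. The rRNA end held 10.8%, 13.4%, 24.0%, 21.1%, 44.6% and 29.7%. The rRNA share was thus larger in the CF Im25 and CF Im59 libraries than in either alkaline control, and largest with RNase I. Reads inside rRNA genes held 5.91%, 6.40%, 11.2%, 9.28%, 22.2% and 27.2%.

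Of the reads at annotated ends, MT-RNR2 made up 14.4% with no siRNA, 19.5% in the scrambled alkaline library, 37.6% in CF Im25, 32.9% in CF Im59, 70.7% in the scrambled RNase I library and 61.1% in CF Im68. The difference from the matched scrambled library was 18.1 percentage points in CF Im25 (17.4 to 18.7), 13.4 in CF Im59 (12.8 to 13.9) and -9.64 in CF Im68 (-10.9 to -8.38). The 2 alkaline controls differed by -5.06 points (-5.53 to -4.60), less than either alkaline depletion. With 1 library in each group, the spread between repeated libraries of a condition is not known.

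**Figure D4:**
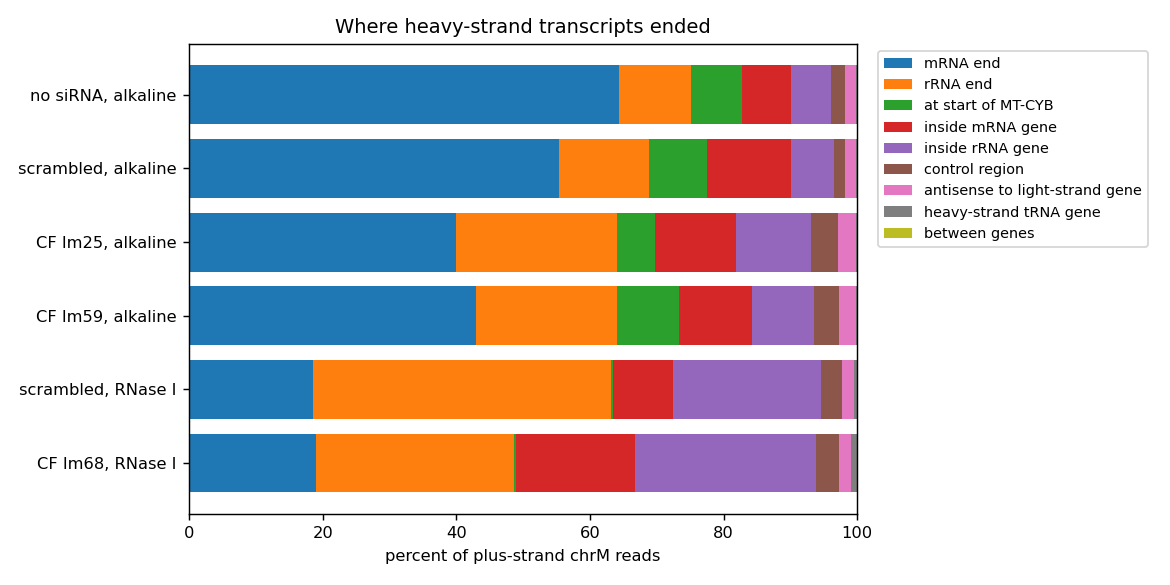
Stacked percent of plus-strand chrM reads by place in each of the 6 libraries. The mRNA-end part shrinks from 64.3% with no siRNA to 18.5% in the scrambled RNase I library, and the rRNA-end part is larger in CF Im25 (24.0%) and CF Im59 (21.1%) than in the 2 alkaline controls.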

How the data were processed

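A-seq counts of 3′ ends per position and strand, deposited by the authors as 1 BED file per library, were used as raw counts; per the submitters' processing notes the build is GRCh37 (hg19), with no aligner or filter named there. Ends of all 6 libraries, weighted equally by library total, were joined into sites of ±25 nt around the highest position, and sites with a mean of at least 1 CPM were kept. Ratios carry exact 95% conditional intervals, shares Clopper-Pearson intervals and differences of shares Newcombe intervals (Python 3.11.15, scipy 1.17.1, statsmodels 0.14.6). The call rule (2-fold, 50 reads, interval excluding 1) was tested on simulated data with counting error only. Those data hold no PCR copies and no spread between libraries, so they do not show how the rule behaves on repeated libraries. Named were the annotated ends with a kept site and the 8 other sites with the highest mean CPM. Annotation was GENCODE 29, matched within 25 nt without converting coordinates. Alternatives covered scaling (edgeR 4.0.16 TMM factors, median of ratios, reads outside chrM), depth, window, fold and read minimum. The members and lists were chosen with earlier results of these data known. Nuclear genes of mitochondrial RNA processing were not analysed here.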

Additional observations from a re-analysis of the deposited data

How the results depend on the processing

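No paired analysis was possible because each group held 1 library. Over 859 alternatives, 589 values stayed within their limits, 266 moved and 4 turned direction. A turn was counted only where the main ratio was called. Some ratios that were not called also crossed 1 under an alternative. MT-CYB in CF Im25 reached 1.13, MT-ND4 in CF Im59 reached 1.04 and MT-ND2 in CF Im59 fell to 0.918. The plus-strand chrM share relative to reads outside chrM was 0.626%, 0.592%, 0.538%, 0.748%, 0.243% and 0.279% (no siRNA, scrambled alkaline, CF Im25, CF Im59, scrambled RNase I, CF Im68). With each position counted once it was 0.179%, 0.204%, 0.210%, 0.245%, 0.141% and 0.164%, and thinned to the smallest library CF Im68 had 0.253%. The share ratio under TMM and median-of-ratios scaling was 1.37 and 1.36 in CF Im59, 1.26 and 1.30 in CF Im68, 1.20 and 1.15 for no siRNA, and 0.457 and 0.465 for RNase I over alkaline. Against reads outside chrM it was 1.15 in CF Im68 and 0.410 for RNase I. TMM moved the log2 ratio of all sites by 0.19 in CF Im68 and in the fragmentation comparison, 0.17 for no siRNA, 0.12 in CF Im59 and 0.01 in CF Im25.

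Among the called ratios, MT-ND2 in CF Im68 turned to 0.915 when the highest nucleotide alone was counted. Between fragmentation methods the site at 14192 turned to 1.09 and the site at 2436 to 1.13 when scaled to plus-strand chrM reads, and the latter to 3.62 at its highest nucleotide. The causes were not tested.

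Counts of calls moved by over 1.5 times as follows. The shares called among all sites of the series were not computed at these settings. The counts below therefore show only how the number of calls depends on the rule. A minimum of 200 reads left 6 higher and 1 lower in CF Im25, 9 higher in CF Im59, 12 higher and 1 lower in CF Im68, 2 higher and 6 lower with no siRNA, and 4 higher and 11 lower for RNase I. No minimum gave 6 lower in CF Im25, 33 higher and 3 lower in CF Im59, 5 lower in CF Im68, 22 lower with no siRNA, and 21 higher and 54 lower for RNase I. A 1.5-fold limit gave 11 lower in CF Im25, 33 higher and 4 lower in CF Im59 and 11 higher with no siRNA. Thinning gave 9 higher in CF Im25, 2 lower in CF Im59, 3 higher and 7 lower with no siRNA and 16 lower for RNase I. In CF Im68, TMM, median-of-ratios and scaling to reads outside chrM each left 1 lower.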

Other observations

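Of the kept plus-strand sites, 4 lay within 5 nt of the 3′ end of a tRNA gene, where the tRNA is cut from the RNA that follows it. These distances are between builds. The site after MT-TL1, which reads leucine codons, was at position 3308 near the start of MT-ND1. It had 68.2 CPM with no siRNA, 63.7 in the scrambled alkaline library, 22.6 in CF Im25, 14.6 in CF Im59, 17.4 in the scrambled RNase I library and 36.5 in CF Im68. It was lower in CF Im25 at 0.355 times (0.305 to 0.413) and in CF Im59 at 0.230 times (0.194 to 0.271), and higher in CF Im68 at 2.10 times (1.68 to 2.66). The site after MT-TF, the phenylalanine tRNA, was at position 652 near the start of MT-RNR1. It had 4.40, 4.54, 6.85, 6.49, 71.6 and 69.5 CPM in the same order, so RNase I gave 15.8-fold more than alkaline hydrolysis between the scrambled libraries. The site after MT-TH, the histidine tRNA, at position 12211 had 2.36, 3.41, 0.844, 1.19, 5.23 and 15.3 CPM and was higher in CF Im68 at 2.93 times (1.96 to 4.52). The site after MT-TG, the glycine tRNA, was at position 10063 near the start of MT-ND3. It had 0.11, 0.31, 1.22, 1.98, 5.42 and 11.5 CPM. It was higher in CF Im68 at 2.12 times (1.41 to 3.27), and its alkaline libraries held too few reads for a call, with ratios of 3.94 in CF Im25 and 6.39 in CF Im59 from 2 to 25 reads. These sites were chosen after their values were seen.

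A site at position 16026 in the control region, within 5 nt of the 5′ end of the light-strand tRNA gene MT-TP, had 20.7, 14.4, 5.72, 7.51, 11.02 and 35.5 CPM. It was lower in CF Im25 at 0.396 times (0.288 to 0.539) and higher in CF Im68 at 3.22 times (2.45 to 4.29).

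A stretch of chromosome 1 at positions 564600 to 570313, a known nuclear copy of mitochondrial DNA, held 11607 plus-strand reads in the 6 libraries, at 409 positions. Whether reads were split between it and chrM was not tested.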
